A study of Rattus norvegicus with 12 samples.

Results

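Mycbp2 was the gene to which the most extrachromosomal circular DNA (eccDNA) was annotated in rat back skin. It was selected on that number: of the 228353 eccDNA listed over all libraries, 506 were annotated to an exon or intron of Mycbp2 (ENSRNOG00000010479), out of 83890 annotated to an exon or intron of any gene. The number that chose the gene is therefore a description, and no test is given for it. The labels describe wild-type SD rats kept under SPF conditions, and 12 skin libraries in 3 groups of 4. The control group was untreated, the 5 Gy x2 group received 2 weekly fractions of 5 Gy on the back and the 5 Gy x4 group 4 such fractions, with irradiated skin taken on day 7 after the last. Age and sex are not in the labels used here, nor is it stated when control skin was taken, so dose and time of sampling cannot be told apart. Separate animals behind the 4 libraries are not stated, so p-values describe only how far the libraries scatter, which may be technical.

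MYCBP2, also known as PAM or PHR1, is a very large ubiquitin ligase. It works with the F-box protein FBXO45 and is best known in neurons, where it limits the DLK (Map3k12) and JNK signalling pathway and controls axon growth, synapse formation and axon degeneration. EccDNA are small circles of chromosomal DNA found in normal tissues, many about as long as the DNA on 1 or 2 nucleosomes. Circle-seq digests linear DNA and sequences what remains, so it reports where circles came from and not whether a gene was expressed; the tissue could not be checked against marker expression.

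The circles of Mycbp2 lay on chromosome 15 between bases 87507985 and 93807934 (rn6), a span of 6.30 Mb. Of the 506 circles, 497 were annotated to introns and 9 to exons. Every one of the 506 listed eccDNA inside this span carried Mycbp2 in its annotation. The nearest eccDNA below the span ended 132.6 kb away, at base 87375427, and the nearest above began 68.32 kb away, at base 93876255. None of the 157 larger circles listed separately as ecDNA was annotated to Mycbp2 or overlapped the span.

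No other gene had an annotated span of this length. The gene with the next longest span was Dmd, which encodes dystrophin, with 2.099 Mb, so the Mycbp2 span was 3.002-fold longer. The gene with the next most circles was Nrxn3, which encodes the presynaptic protein neurexin 3, with 160 circles, against which Mycbp2 had 3.163-fold more. Those that followed included Pard3b with 131 circles, an unnamed gene (ENSRNOG00000006617) with 123, Cdh13 with 117, Rbms3 with 114, Luzp2 and Astn2 with 113 each, and Gpc6 with 111. Only 11 of the 14890 genes with a listed circle spanned 1 Mb or more, from first to last circle.

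**Figure D1:**
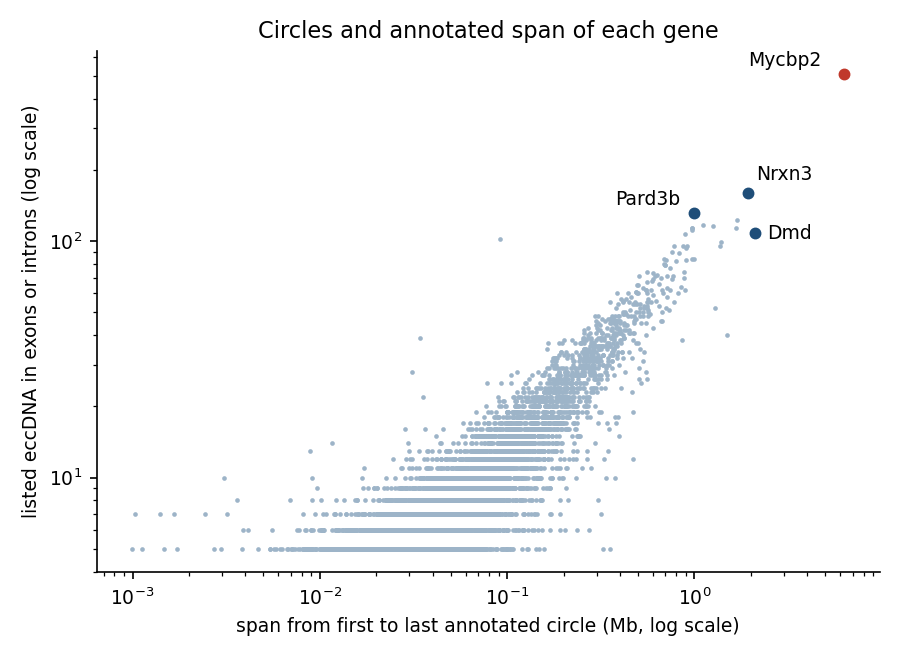
Number of listed eccDNA in exons or introns (vertical axis, log scale) against the span from first to last annotated circle in Mb (horizontal axis, log scale), for genes with at least 5 circles; the red point is Mycbp2 and dark points are the labelled genes Nrxn3, Pard3b and Dmd. Mycbp2 stands apart in both, with 506 circles over 6.30 Mb.

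Per unit of length, Mycbp2 was not rich in circles. The span held 80.32 circles per Mb, and the rest of chromosome 15 held 81.07. An equal stretch just below held 87.14 per Mb and one just above 68.57. The gene held 5.618% of the 9007 eccDNA of chromosome 15 on 5.667% of its covered length. Among the 803 genes with at least 20 circles, Mycbp2 ranked 751 by circles per Mb, with a median of 117.1 per Mb over these genes. This set was chosen on the number of circles, so a short gene enters it only at a high density. The filter thus places a long span low in the ranking, and the rank is only a description. Cut into 16 windows as long as the span, chromosome 15 placed the Mycbp2 window ninth by number of circles: the other 15 windows held 361 to 647, with a median of 535, and 8 held more.

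The span was drawn from the first to the last circle annotated to Mycbp2, which fixes the annotation only at its ends. The circles between these ends were also all annotated to exons or introns of Mycbp2, a share of 100%. The span was chosen by its annotation, so this share is a description and no test is given. In the equal stretch below, 24.95% of the eccDNA were annotated to exons or introns, in the one above 3.935%, and over the rest of the chromosome 32.11%.

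**Figure D2:**
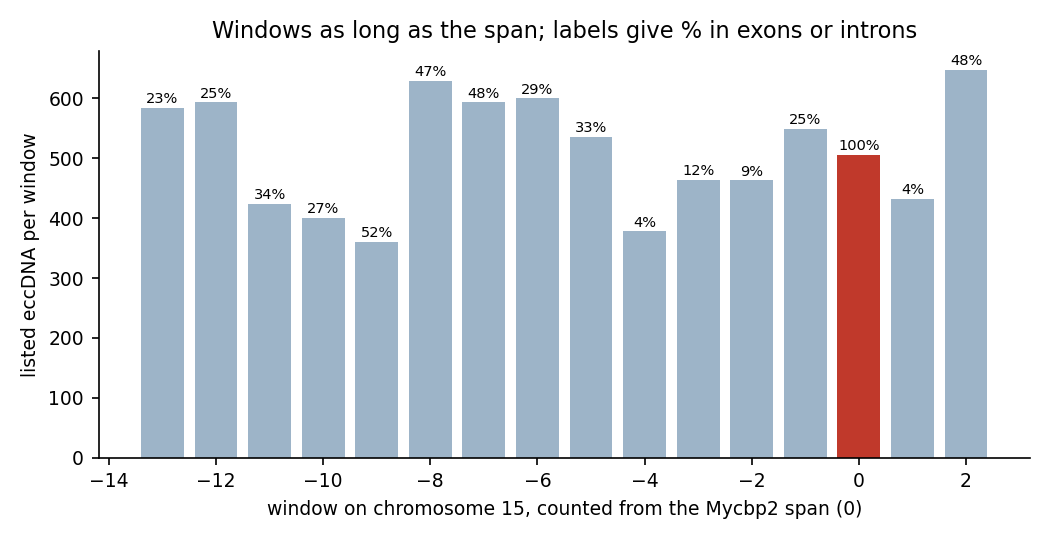
Listed eccDNA (vertical axis) in 16 windows of chromosome 15, each as long as the Mycbp2 span, counted from the span at 0 (red); the label on a bar is the percent annotated to exons or introns. The Mycbp2 window has 506 circles, inside the range of 361 to 647 of the others. Its ends were set at circles annotated to Mycbp2, and every circle between them also carried Mycbp2.

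Other genes lay inside the annotated span. Of the 506 circles, 450 were annotated to Mycbp2 alone and 56 to another gene as well: 39 to 10 named genes and 17 to unnamed genes only. All 9 exon circles carried another gene, and the number of exon circles annotated to Mycbp2 alone was 0. Exon circles were 1.779% of those of Mycbp2 and 12.8% of all genic eccDNA.

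In order along the chromosome the named genes began with Scel, which encodes sciellin of the cornified envelope of skin, with 12 circles at bases 87707785 to 87819922. Slain1 (a microtubule regulator) and Ednrb (the endothelin receptor of melanocyte development) had 1 circle each. Pou4f1, a neuronal transcription factor, had 2 and Obi1, a ubiquitin ligase of replication origins, had 7. The RNA-binding protein gene Rbm26 had 6 and Ndfip2, an adaptor of ubiquitin ligases, had 5. Trim52 and AABR07019209.2 had 1 each. Each listed genic circle of these 10 genes also carried Mycbp2. In the RefSeq annotation of a later rat build (GRCr8), used only for which genes neighbour each other, 9 of the 10 were found and none of the 9 overlapped Mycbp2.

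**Figure D3:**
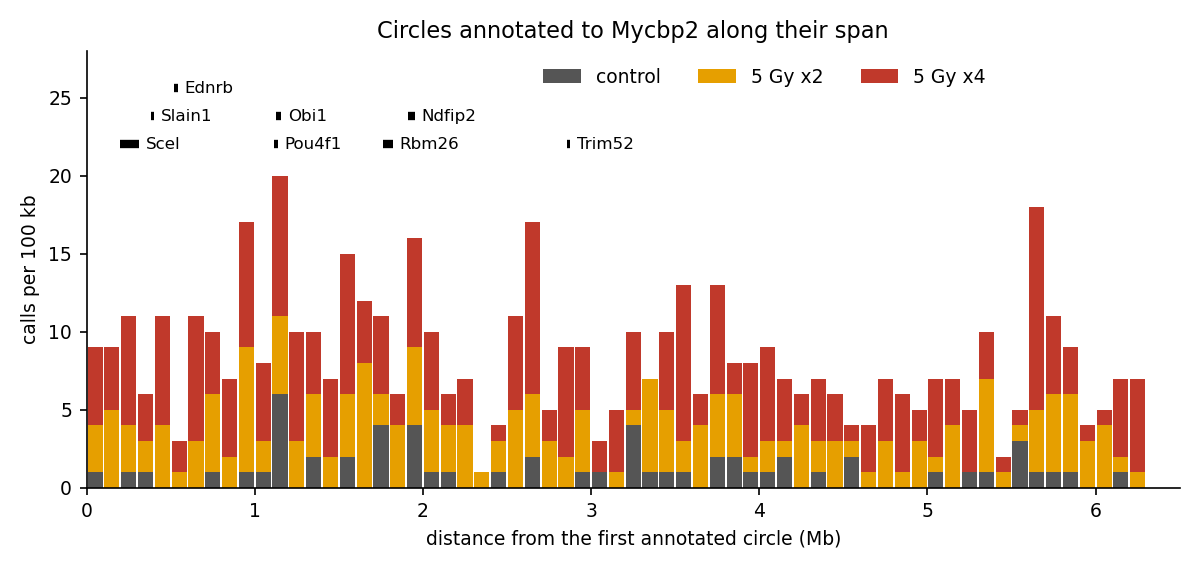
Calls, meaning a circle found in a library, per 100 kb (vertical axis) against the distance from the first annotated circle in Mb (horizontal axis), stacked by group; black marks show the circles of the labelled genes that share the annotation. Calls run along the whole span, and marks of other genes start with Scel near the first circle.

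Circles were spread over the whole span. Of 63 bins of 100 kb, 0 were empty, and a bin held 1 to 17 circles with a median of 7. Bins over the rest of the chromosome had a median of 8 and a highest count of 35. Circles covered 175.5 kb, or 2.786% of the span, in 485 separate stretches, 21 of them made of 2 overlapping circles. The median distance between neighbouring starts was 6.958 kb, and 7.179 kb on the rest of the chromosome. The largest distance was 121.7 kb, between bases 89772935 and 89894662. By sevenths of the span the number ran from 55 in the sixth to 99 in the second, which holds the circles of Pou4f1 and Obi1.

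Most circles were seen in 1 library. That held for 488 of the 506 (96.44%, against 96.09% of all eccDNA); 17 were in 2 libraries and 1 in 7. Of the 17, 7 joined a 5 Gy x2 and a 5 Gy x4 library, 3 a control and a 5 Gy x2 library, 2 a control and a 5 Gy x4 library, and 5 lay within a group. By the authors' confidence labels 128 circles were hconf, 50 conf and 328 lconf, so that 25.3% were hconf, against 26.36% of all eccDNA. A circle had a median of 4 supporting reads, as over all eccDNA, and 104 circles rested on 1 read.

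The circle found in 7 libraries was an intron circle of 70 bp at bases 88665187 to 88665256, annotated to both Mycbp2 and Obi1. It had 476 of the gene's 4245 supporting reads, or 11.21%, while the circle with the second most reads had 71. In the 4 control libraries it had 76, 12, 55 and 164 reads. In the 5 Gy x2 libraries it had 0, 35, 0 and 0, and in the 5 Gy x4 libraries 0, 31, 0 and 103. It was thus present in every control library and in 3 of the 8 irradiated ones, and it made up 72.38%, 7.792%, 15.99% and 83.25% of the Mycbp2 reads in the 4 controls. Pooled over controls this was 38.38%, and 23.71% without control replicate 4. It was singled out by its number of libraries, so no test is given.

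Among the circles in 2 libraries, one of 523 bp at bases 88854549 to 88855071 had 60 reads in control replicate 3 and 11 in 5 Gy x4 replicate 2. The longest circle had 1425 bp (bases 92242463 to 92243887, 1 read) and the shortest 36 bp (bases 88858438 to 88858473, 4 reads).

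Lengths had 2 main classes. Of the 506 circles, 350 (69.17%) measured 330 to under 420 bp and 77 (15.22%) 150 to under 250 bp. On the rest of chromosome 15 these classes held 67.15% and 16.97%. The median length was 362 bp in Mycbp2 and 361 bp on the rest of the chromosome.

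**Figure D4:**
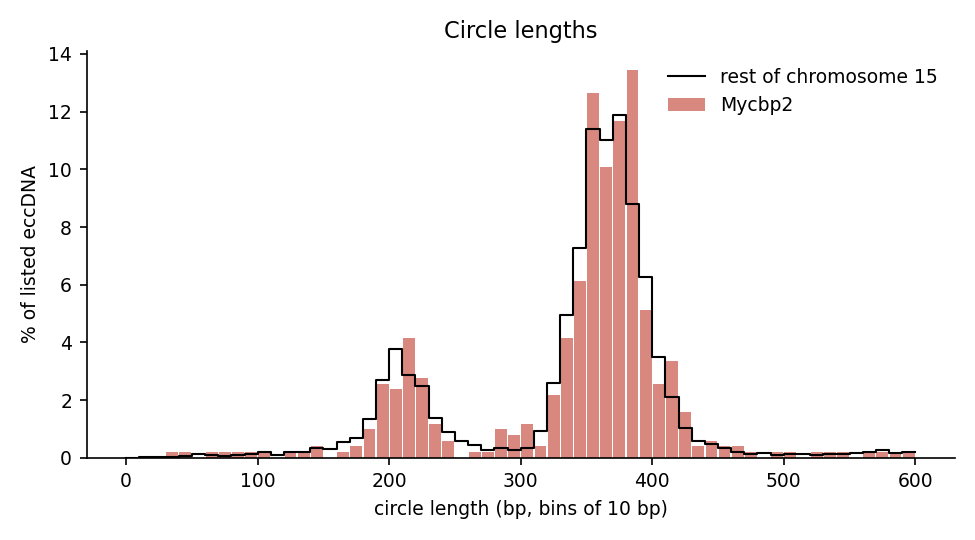
Percent of listed eccDNA (vertical axis) by length in bins of 10 bp (horizontal axis, up to 600 bp); red bars are the 506 Mycbp2 circles and the black line the 8501 on the rest of chromosome 15. Both have one peak near 200 bp and a higher one between 330 and 420 bp.

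Within libraries, Mycbp2 circles were set against those on the rest of chromosome 15. The share of 330 to under 420 bp was 59.14% ± 24.54 in Mycbp2 and 56.21% ± 17.53 on the rest (SD, n = 12 libraries), higher in Mycbp2 in 8 of 12 (exact sign-flip permutation test, two-sided, p = 0.451). The median length, the share labelled hconf, the share found in 1 library and the share with 1 read gave p of 0.182 to 0.595 by the same exact test. None of these 5 differences passed (lowest adjusted p = 0.563).

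The number of Mycbp2 circles per library was highest after 4 fractions. Control libraries held 11, 20, 25 and 3 circles, 5 Gy x2 libraries 47, 63, 64 and 17, and 5 Gy x4 libraries 58, 95, 87 and 39. Every 5 Gy x4 library lay above every control library, while 5 Gy x2 overlapped both other groups. The means were 14.75 ± 9.743, 47.75 ± 21.93 and 69.75 ± 25.94 (SD, n = 4 each).

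The 5 Gy x4 mean was 4.729-fold that of controls (exact permutation test, two-sided, p = 0.0286, the smallest that 4 against 4 allows; 0.143 after Benjamini-Hochberg adjustment over 15 tests of 5 measures). The 5 Gy x2 mean was 3.237-fold that of controls (exact permutation p = 0.0857). The 5 Gy x4 mean was 1.461-fold that of 5 Gy x2 (exact permutation p = 0.286). None passed after adjustment, which at 4 against 4 would need most of the 15 tests at the smallest p. The libraries differed in the total number of eccDNA, from 3601 to 10389 in controls, 6326 to 28757 in 5 Gy x2 and 20124 to 46163 in 5 Gy x4. Drawn down to 34499 supporting reads each, the 5 Gy x4 mean was 2.86-fold that of controls (33.46 against 11.7 circles, exact permutation p = 0.0286). How many cells gave circles and how many circles a cell gave cannot be told apart in tissue libraries.

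As a share of the library's eccDNA, the groups overlapped. Control libraries had 22.94, 21.18, 24.06 and 8.331 Mycbp2 circles per 10000 eccDNA. The 5 Gy x2 libraries had 24.73, 21.91, 23.32 and 26.87, and the 5 Gy x4 libraries 26.25, 21.25, 18.85 and 19.38. The low control value is replicate 4, with 3 circles. The mean shares were 0.191% ± 0.0730 in controls, 0.242% ± 0.0212 in 5 Gy x2 and 0.214% ± 0.0337 in 5 Gy x4 (SD, n = 4). Exact permutation tests gave p = 0.2 for 5 Gy x2 against control, 0.714 for 5 Gy x4 against control and 0.2 for 5 Gy x4 against 5 Gy x2. With only circles annotated to no other gene, chosen after seeing the data, the means were 0.1486% in controls, 0.2225% in 5 Gy x2 and 0.187% in 5 Gy x4. There every 5 Gy x2 library lay above every control (exact permutation p = 0.0286, adjusted p = 0.107). The 5 Gy x4 libraries still overlapped controls (exact permutation p = 0.429).

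The circle density of the span relative to the rest of chromosome 15 was 0.860 ± 0.333 in controls, 1.112 ± 0.177 in 5 Gy x2 and 0.945 ± 0.126 in 5 Gy x4 (SD, n = 4). The lowest library was again control replicate 4, at 0.365. The equal stretches beside the span and the rest of the chromosome gave no difference in share that passed between groups (exact permutation tests, lowest p = 0.143 of 9).

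**Figure D5:**
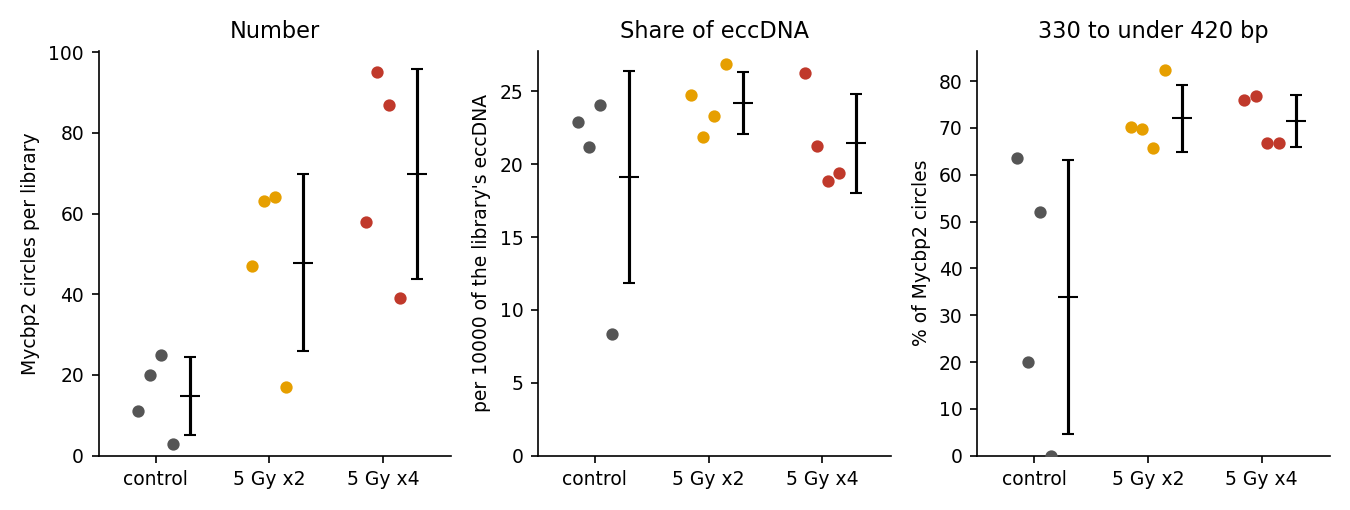
Mycbp2 circles per library, Mycbp2 circles per 10000 eccDNA, and percent of Mycbp2 circles of 330 to under 420 bp, by group (points, 4 libraries each; bars, mean ± SD). The number separates 5 Gy x4 from control, the share of eccDNA does not, and the length class is lower in all 4 controls than in every irradiated library, as on the rest of chromosome 15.

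Supporting reads gave no ordering of the groups either. Mycbp2 took 0.201% ± 0.0732 of the eccDNA reads in controls, 0.183% ± 0.0461 in 5 Gy x2 and 0.178% ± 0.0204 in 5 Gy x4 (SD, n = 4; exact permutation p of 0.743 to 0.857). This comparison turned with 1 circle: without the 70 bp circle the means were 0.0969%, 0.174% and 0.167%. Every 5 Gy x4 library then lay above every control (exact permutation p = 0.0286, adjusted p = 0.107). The 5 Gy x2 libraries overlapped controls (exact permutation p = 0.0857, adjusted p = 0.257). Replicate 4 of 5 Gy x2 had 0.1151%, below control replicates 2 and 3 at 0.1215% and 0.1499%. The circle left out had been picked from the same reads as the best supported one.

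The share of Mycbp2 circles of one length class was lower in controls than in irradiated skin, as it was on the rest of chromosome 15. Circles of 330 to under 420 bp made up 63.64%, 20%, 52% and 0% in the 4 controls. The shares were 70.21%, 69.84%, 65.62% and 82.35% in 5 Gy x2, and 75.86%, 76.84%, 66.67% and 66.67% in 5 Gy x4. All 8 irradiated libraries lay above all 4 controls. The means were 33.91% ± 29.18, 72.01% ± 7.204 and 71.51% ± 5.606 (SD, n = 4). Both irradiated groups differed from controls at the smallest p possible (exact permutation p = 0.0286; adjusted p = 0.143), while their means lay within 0.499 percentage points of each other (exact permutation p = 1). On the rest of chromosome 15 the same class made up 36.02%, 33.84%, 46.09% and 19.71% in controls and 62.98% to 71.27% in the 8 irradiated libraries (exact permutation p = 0.0286 for each irradiated group against control; adjusted p = 0.0857 over 6 tests). The difference between Mycbp2 and the rest of the chromosome did not pass between groups (exact permutation p of 0.686 to 0.857). The Mycbp2 controls rest on few circles, 24 of 59 calls in the class, and control replicate 4 on 3. With a class of 340 to under 400 bp the p became 0.2 and 0.171 for 5 Gy x2 and 5 Gy x4 against control by the same exact permutation test.

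No difference in position along the span passed between groups. The part of the span below its midpoint, on the lower-coordinate side, held 55.8% ± 7.477 of the circles in controls, 54.46% ± 6.658 in 5 Gy x2 and 57.07% ± 8.174 in 5 Gy x4 (SD, n = 4; exact permutation p of 0.629 to 0.8).

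A fit across all genes compared Mycbp2 with other genes. Few genes had enough circles: edgeR's filter kept 15 of 14890. In edgeR's quasi-likelihood test with TMM normalization, Mycbp2 differed by a log2 of 0.26 (SE 0.23, Benjamini-Hochberg adjusted p = 0.317) between 5 Gy x2 and control, 0.31 (SE 0.22, adjusted p = 0.202) between 5 Gy x4 and control, and 0.05 (SE 0.16, adjusted p = 0.968) between 5 Gy x4 and 5 Gy x2. Mycbp2 was called in none of the 3. The same test called 40.0% of the 15 genes in 5 Gy x2 against control, 60.0% in 5 Gy x4 against control and 0.00% between the irradiated groups, where 1 gene had an unadjusted p under 0.05 and DESeq2 called 0.

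These fold changes are relative to the 15 kept genes, whose median log2 was itself 0.22 and 0.18 in the comparisons with control. With all genic eccDNA as library size and no TMM, Mycbp2 stood at a log2 of 0.27 (SE 0.25, edgeR adjusted p = 0.434) for 5 Gy x2 and 0.08 (SE 0.24, adjusted p = 0.974) for 5 Gy x4 against control. For 5 Gy x4 against control the 15 genes had a median log2 of 0.46 in DESeq2, and 7 were called. DESeq2 called Mycbp2 in that comparison (log2 of 0.68, adjusted p = 0.0158). So did edgeR without control replicate 1 (log2 of 1.36 for 5 Gy x2 and 1.35 for 5 Gy x4), and without 5 Gy x2 replicate 4 in 5 Gy x2 against control (log2 of 0.95). Without control replicate 1 the filter kept 22 genes and 12 were called in each comparison with control, with a median log2 of 0.74 and 0.52. Without 5 Gy x2 replicate 4 it kept 25 and 15 were called, with a median log2 of -0.42.

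The genes whose share of a library's eccDNA most resembled that of Mycbp2 over the 12 libraries were Gpc6, also on chromosome 15 (Pearson r = 0.774), Csrnp3 (0.744), Nlgn1 (0.743), an unnamed gene, ENSRNOG00000054834 (0.736), and Fstl4 (0.719). They were picked as the highest of 933 genes with at least 20 calls, whose median r was 0.161; libraries share depth in all of them, and control replicate 4 is low in Mycbp2.

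Partners of the Mycbp2 ligase were also described. Of 24 genes listed for the ligase and its pathway, 21 had a circle, 143 in all, and none was among the 15 genes tested. The median was 5 circles over these 21 and 3 over all 14890 genes with a circle. The most were in Mapk10, a JNK kinase gene, with 32 and in Nmnat2, whose product keeps axons alive, with 16. Map3k13 (LZK, a kinase related to DLK) and Ephb2 had 13 each, and Fbxo45 had 6. Map3k12, Map2k7 and Myc had 0 listed circles. Of 15 genes listed as neighbours on the chromosome, 9 had a circle, 102 in all, led by Klf12 with 39, Tbc1d4 with 19 and Lmo7 with 18.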

How the data were processed

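Mycbp2, its measures and the gene lists were chosen with earlier results of these data known. The authors deposited, per library, whole-number counts of supporting reads per circle, and 2 annotation tables with the positions of the circles; circles start and end at single bases in rn6. BWA, Picard and bedtools are named in the submitters' processing notes, with no versions. How a circle was assigned to a gene is not given in the sources used here. From these tables, circles with at least 1 read were counted per library (Python 3.11.15, pandas 2.3.3). Supporting eccDNA reads per library ran from 34499 to 397674. Control, 5 Gy x2 and 5 Gy x4 were compared by two-sided exact permutation tests of 5 measures, adjusted over 15 tests by Benjamini-Hochberg, and in a fit of circles per gene (edgeR 4.0.16 with filterByExpr and TMM; DESeq2 1.42.0 as an alternative).

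The fit was tested on simulated counts, and several normalizations were compared there. With no gene changed, the fit used made few false calls. With many genes changed in this balanced way it shifted fold changes and made some false calls, and TMM over sparse genes shifted them more. A fit with all genic eccDNA as library size and no TMM was added for that reason, after the data were seen. The strand of the gene is not in the files, so the planned split read from the gene's 5′ end became the part of the span below its midpoint. Named genes were Mycbp2, the 10 genes with most circles, the 5 most alike and the members of both lists with a circle, though members with few circles are given only in the totals; of single circles, those in 3 or more libraries, those with most reads, the longest and the shortest. Dmd was named after its span was seen. Some items under this rule are not reported here. Replicate numbers were not used as pairs in the main tests. Deviations of same-numbered libraries over 289 windows correlated between -0.11 and 0.41. The highest was for replicate 4 of 5 Gy x2 and control. No correlation of differently numbered libraries is given here to set beside these, so whether the numbers pair the libraries was not settled. No circle sequence is printed, since no rn6 genome was used here.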

Additional observations from a re-analysis of the deposited data

Results flagged for a closer look

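The share of Mycbp2 circles below the midpoint of the span was 69.23% in 5 Gy x4 replicate 4, far from the other 3 libraries of that group at 51.58% to 54.02%. The gap to the nearest was 0.861 of the group's range above Dixon's 95% critical value for 4 samples. It was 1 of 15 groups tested, and chance flags about 1 in 20.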

How the results depend on the processing

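No comparison of the 5 measures passed at an adjusted p of 0.05 under any alternative run, and differences in the number of circles kept their direction under all of them. The share of supporting reads turned against control without the 70 bp circle (differences of 0.0772 and 0.0702 percentage points for 5 Gy x2 and 5 Gy x4), with circles found in 1 library only (0.0873 and 0.0889; 0.00153 for 5 Gy x4 against 5 Gy x2) and, chosen after seeing the data, with circles of no other gene (0.0728 and 0.0513). Small differences also turned: the percent below the midpoint for 5 Gy x2 against control with at least 2 reads (0.259) and the share of eccDNA between irradiated groups with at least 5 reads (6.59e-05). The cause was not tested for these.

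In the fit across all genes, DESeq2 gave a called log2 of 0.68 for 5 Gy x4 against control, where the median of the genes tested was 0.46. The total number of eccDNA as library size gave Mycbp2 -0.046 in that comparison. Between irradiated groups the log2 was -0.0073 with library size alone, -0.12 with the total number, -0.10 with at least 10 circles in 4 libraries and -0.19 with all genic eccDNA and no TMM. With at least 10 circles in all libraries together, TMM gave Mycbp2 1.17 for 5 Gy x4 against control while the median of all 2579 genes was 1.26, so Mycbp2 lay 0.088 below that median. That setting called 6 genes for 5 Gy x4 against control and 0 for 5 Gy x2 against control (436 with an unadjusted p under 0.05), against 9 and 6; at least 10 circles in 4 libraries called 4 and 3, and DESeq2 7 and 1.

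Leaving out each library in turn gave these ranges, in the order 5 Gy x2 against control, 5 Gy x4 against control, 5 Gy x4 against 5 Gy x2. Number of circles: 27.58 to 43.25, 46.58 to 65.25, 11.75 to 32.25. Percent of eccDNA: 0.0148 to 0.0673, -0.0130 to 0.0395, -0.0438 to -0.0189. Percent of reads: -0.0415 to 0.0161, -0.0470 to 0.0105, -0.0282 to 0.00609. Percent of 330 to under 420 bp: 26.8 to 48.01, 26.3 to 47.51, -2.63 to 2.95. Percent below the midpoint of the span: -3.83 to 2.28, -2.79 to 4.89, -1.44 to 5.09. Log2 in the fit: 0.15 to 1.36, 0.066 to 1.35, -0.16 to 0.017. The share of eccDNA of 5 Gy x4 turned below control without control replicate 4, which holds 3 Mycbp2 circles.

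With the replicate number as a block, exact p for the number of circles was 0.125 in all 3 comparisons, the smallest 4 pairs allow, and log2 in the fit was 0.24, 0.29 and 0.06; the block changed no call of Mycbp2. The planned split at the midpoint of the span is the one used and was not run again. Few circles per control library limit every share, and intervals for reads would cover counting error only.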
